A study of Homo sapiens with 3 samples.

Results

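SR proteins, hnRNP proteins and their close partners are the RNA-binding proteins that steer which exons a cell keeps. The 39 genes described here are those whose symbol begins with SRSF or HNRNP, pseudogenes and antisense symbols left out, together with TRA2A, TRA2B, PTBP1, ESRP1 and ESRP2. They were taken by symbol and not by any measured value, from 21614 genes that had a named probe on the array. The cells were of the HT29 line, which was established from a human colon adenocarcinoma. They were harvested from tissue culture polystyrene (TCP, labelled 2D), from chitosan membranes (CS, labelled chitosan) or from chitosan membranes grafted with hyaluronan (CSHA, labelled chitosan_HA), with no gene altered and no drug added in any group. Each substrate had 1 array in a single colour, so a difference between substrates has no replicate check, no test was possible and no p-value is given.

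SR proteins carry an RNA recognition motif and a tail rich in arginine and serine, and they generally promote the use of exons by binding enhancers within them. The hnRNP proteins coat nascent transcripts and often favour exon skipping, although both families can act either way depending on where they bind. Kinases of the SRPK and CLK families phosphorylate the tails of SR proteins and so set where in the cell they work. Many of these genes also control their own transcripts through an exon that brings a premature stop, which sends the transcript to nonsense-mediated decay. ESRP1 and ESRP2 are splicing regulators of epithelial cells and hold CD44 and other transcripts in their epithelial isoforms.

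The 39 genes had 68 probes. Of these, 67 were well above background on every array, and the single probe of SRSF12, a relative of SRSF10, was not on any. SRSF12 was therefore left without a difference, and 38 genes were compared. In 19 genes more than 1 probe was present, up to 6 for HNRNPA3, and the brightest stood for the gene while the others were read beside it. The value of a probe, called its level here, is the log2 processed signal minus the log2 of the 75th percentile of that array's signal, and a difference between levels is a log2 fold. Probes differ in how brightly they bind, so levels were compared between arrays and never between genes. As the error of a difference, the SD among spots of probes that were printed 10 times was taken at the same brightness. It was 0.054 at the median of the 38 genes for CS minus TCP and 0.058 for CSHA minus TCP, and it covers the spots of an array, not differences between cultures.

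All 3 arrays lay on 1 slide. Between 48.6% and 51.1% of their probes were well above background, no spot was saturated, and the 75th percentile of the signal lay between 337 and 423. Of 11 markers of colon epithelium, among them EPCAM, CDH1 and KRT20, 11 were well above background on every array. None of 7 stroma markers was well above background on all arrays, and SPARC and VIM were so on TCP alone. Of 5 leukocyte markers with a probe, 3 were well above background throughout, namely CD68, CD14 and PTPRC. CD68 and CD14 were higher on CSHA than on TCP by 1.01 and 1.04. The brightest PTPRC probe was at 0.05, within the spread among spots. CD3E was lower by 1.75 on CSHA and was not well above background on CS. The part of these markers in the differences below was not tested.

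By a rule of at least 1.5-fold in any comparison, 6 of 38 splicing factors passed, and all 6 did so for CSHA minus TCP. In that comparison 11.5% of all genes were higher by this rule and 11.2% were lower. The stretch around the transcription start of these 6 is shown because the rest of the results turns on them. The sequences are RefSeq's for the GRCh38.p14 assembly, 250 bases before to 50 bases after the start, and 34 of the 39 genes had one. HNRNPU lies at chr1:244864494-244864793 on the minus strand, HNRNPUL1 at chr19:41262307-41262606 on the plus strand and HNRNPUL2 at chr11:62727408-62727707 on the minus strand. PTBP1 lies at chr19:797202-797501 and SRSF11 at chr1:70221130-70221429, both on the plus strand, and SRSF7 at chr2:38751445-38751744 on the minus strand. Capitals mark matches, on either strand, to the motifs searched.
HNRNPU: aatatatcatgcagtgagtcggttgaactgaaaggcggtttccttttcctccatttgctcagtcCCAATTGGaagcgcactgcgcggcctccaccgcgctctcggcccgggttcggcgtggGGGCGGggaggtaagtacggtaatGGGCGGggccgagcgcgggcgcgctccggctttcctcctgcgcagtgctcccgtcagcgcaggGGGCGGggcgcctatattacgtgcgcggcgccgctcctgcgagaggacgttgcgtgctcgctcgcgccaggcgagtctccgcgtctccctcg
HNRNPUL1: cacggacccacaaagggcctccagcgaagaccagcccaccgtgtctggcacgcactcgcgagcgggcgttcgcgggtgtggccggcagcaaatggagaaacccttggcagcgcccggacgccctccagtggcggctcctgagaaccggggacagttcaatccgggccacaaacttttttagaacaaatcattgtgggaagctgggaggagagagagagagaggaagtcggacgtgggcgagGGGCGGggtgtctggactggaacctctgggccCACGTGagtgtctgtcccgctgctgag
HNRNPUL2: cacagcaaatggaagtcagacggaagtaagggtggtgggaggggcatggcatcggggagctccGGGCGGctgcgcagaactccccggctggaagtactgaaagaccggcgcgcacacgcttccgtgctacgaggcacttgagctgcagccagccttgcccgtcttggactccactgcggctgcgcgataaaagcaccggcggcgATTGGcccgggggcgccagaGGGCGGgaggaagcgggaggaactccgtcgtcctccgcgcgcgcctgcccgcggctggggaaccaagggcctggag
SRSF11: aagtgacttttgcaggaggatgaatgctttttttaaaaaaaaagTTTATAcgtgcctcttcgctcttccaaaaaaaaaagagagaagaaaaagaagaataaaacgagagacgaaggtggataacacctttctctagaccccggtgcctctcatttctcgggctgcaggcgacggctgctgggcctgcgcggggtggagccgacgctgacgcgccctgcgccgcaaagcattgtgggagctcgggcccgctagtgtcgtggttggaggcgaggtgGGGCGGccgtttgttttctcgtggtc
SRSF7: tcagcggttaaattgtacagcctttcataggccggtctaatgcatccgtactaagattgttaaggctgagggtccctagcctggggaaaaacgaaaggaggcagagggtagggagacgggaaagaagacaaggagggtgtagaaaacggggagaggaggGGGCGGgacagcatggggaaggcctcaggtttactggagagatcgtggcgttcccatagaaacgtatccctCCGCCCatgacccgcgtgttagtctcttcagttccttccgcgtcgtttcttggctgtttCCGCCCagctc
PTBP1: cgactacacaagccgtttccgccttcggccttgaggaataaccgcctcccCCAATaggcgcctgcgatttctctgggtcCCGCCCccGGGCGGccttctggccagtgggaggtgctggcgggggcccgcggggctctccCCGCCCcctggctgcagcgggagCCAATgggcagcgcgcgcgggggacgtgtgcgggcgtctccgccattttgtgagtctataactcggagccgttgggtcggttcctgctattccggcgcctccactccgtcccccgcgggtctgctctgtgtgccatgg

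Each motif was searched on both strands, and no motif contains another. Where matches run into each other, as in HNRNPU, the capitals form a single run. The GC box, with the letters GGGCGG, was present in 6 of the 6 promoters shown, in 23 of 34 promoters of the splicing factors (67.65%) and in 44.59% of the 27305 promoters in the table. HNRNPU, SRSF7 and PTBP1 had 3 matches each, HNRNPUL2 had 2, and HNRNPUL1 and SRSF11 had 1. The letters CCAAT, the binding sequence of the factor NF-Y, were found in HNRNPU, HNRNPUL2 and PTBP1, in 17 of the 34 promoters and in 35.7% of all. HNRNPUL1 held the E-box CACGTG just after the start. Anywhere in the stretch, this motif was in 7 of the 34 (20.59%), HNRNPUL1 among them, against 7.43% of all promoters. SRSF11 held the TATA box letters TATAAA far upstream of the start, a motif found in 5 of the 34 and 11.95% of all. An ETS core, searched as CCGGAAG, was in 5 of the 34 (14.71%) and 10.67% of all. The first bases of a cyclic AMP response element, searched as TGACGT, were in 6 of the 34 (17.65%) and 8.32% of all. Neither of these last motifs was found in the 6 promoters shown. The promoters of the splicing factors had a median GC content of 64.5%, against 58.3% in the whole table. These matches describe letters and were not tested as binding sites.

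Compared to TCP, the splicing factors as a set lay close to the middle of all genes on both membranes. On CS their median difference was 0.03, beside 0.04 for the 14462 genes compared, with 21 higher and 17 lower. On CSHA it was 0.16, beside 0.13 for 14624 genes, with 26 higher and 12 lower. The share of all genes that were higher was 56.8% on CS and 61.7% on CSHA. Of the splicing factors, 37 of 38 on CS (97.4%) and 30 of 38 on CSHA (78.9%) lay within 0.5 of 0, against 87.9% and 71.2% of all genes. These shares are not matched for brightness. All 38 were well above background on every array, whereas the genes compared included faint ones and some read on 1 of the 2 arrays alone. Both comparisons share the TCP array.

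**Figure D1:**
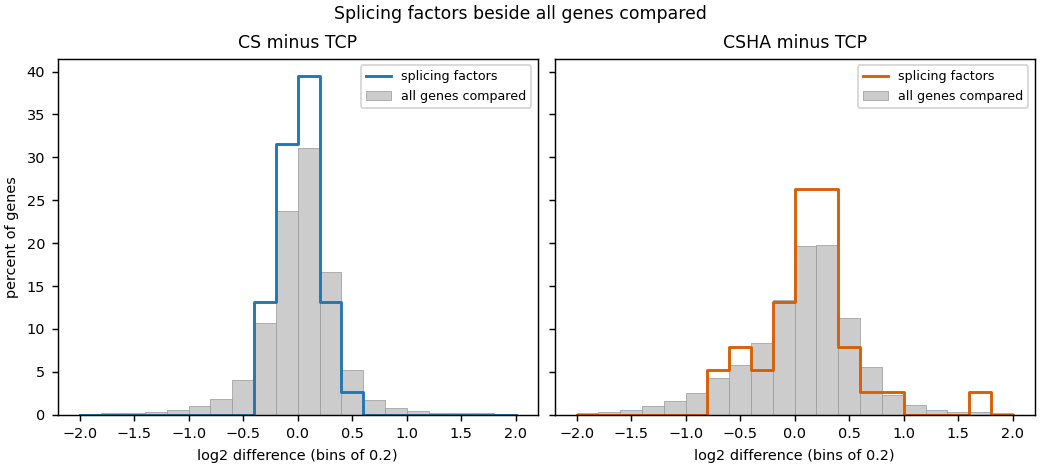
Percent of genes (y axis) in bins of 0.2 of the log2 difference from TCP (x axis), for CS on the left and CSHA on the right, with the 38 splicing factors as a line and all genes compared as grey bars. The line follows the grey bars near 0 and lacks their outer tails on CS, and on CSHA the single bin beyond 1.5 holds HNRNPUL2.

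On CS, 0 of 38 splicing factors were 1.5-fold higher than on TCP, where 4.11% of all genes were, and 0 were 1.5-fold lower, where 5.03% were. At 2-fold the counts were also 0, beside 1.36% higher and 1.92% lower among all genes. The highest were HNRNPUL2 at 0.51 ± 0.075 (SD among spots) and SRSF11 at 0.39 ± 0.053, and the lowest were HNRNPAB at -0.34 ± 0.055 and PTBP1 at -0.31 ± 0.075.

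On CSHA, 4 splicing factors were at least 1.5-fold higher than on TCP, namely HNRNPUL2, HNRNPUL1, SRSF11 and HNRNPU, and 2 were at least 1.5-fold lower, PTBP1 and SRSF7. That is 4 and 2 of 38, where 11.5% of all genes were higher and 11.2% lower by this rule. At 2-fold, 1 was higher, HNRNPUL2, and 0 were lower, beside 3.02% and 3.98% of all genes. HNRNPU sat just inside 1.5-fold at 0.59, where the rule is 0.585, while SRSF9 at -0.57 and HNRNPH2 at 0.55 sat just outside it. The counts depended on the scaling of the arrays. When the arrays were scaled to 7 bright spike-in probes, the CSHA median of all genes went from 0.13 to 0.56, and 19 splicing factors were 1.5-fold higher and 0 were lower.

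**Figure D2:**
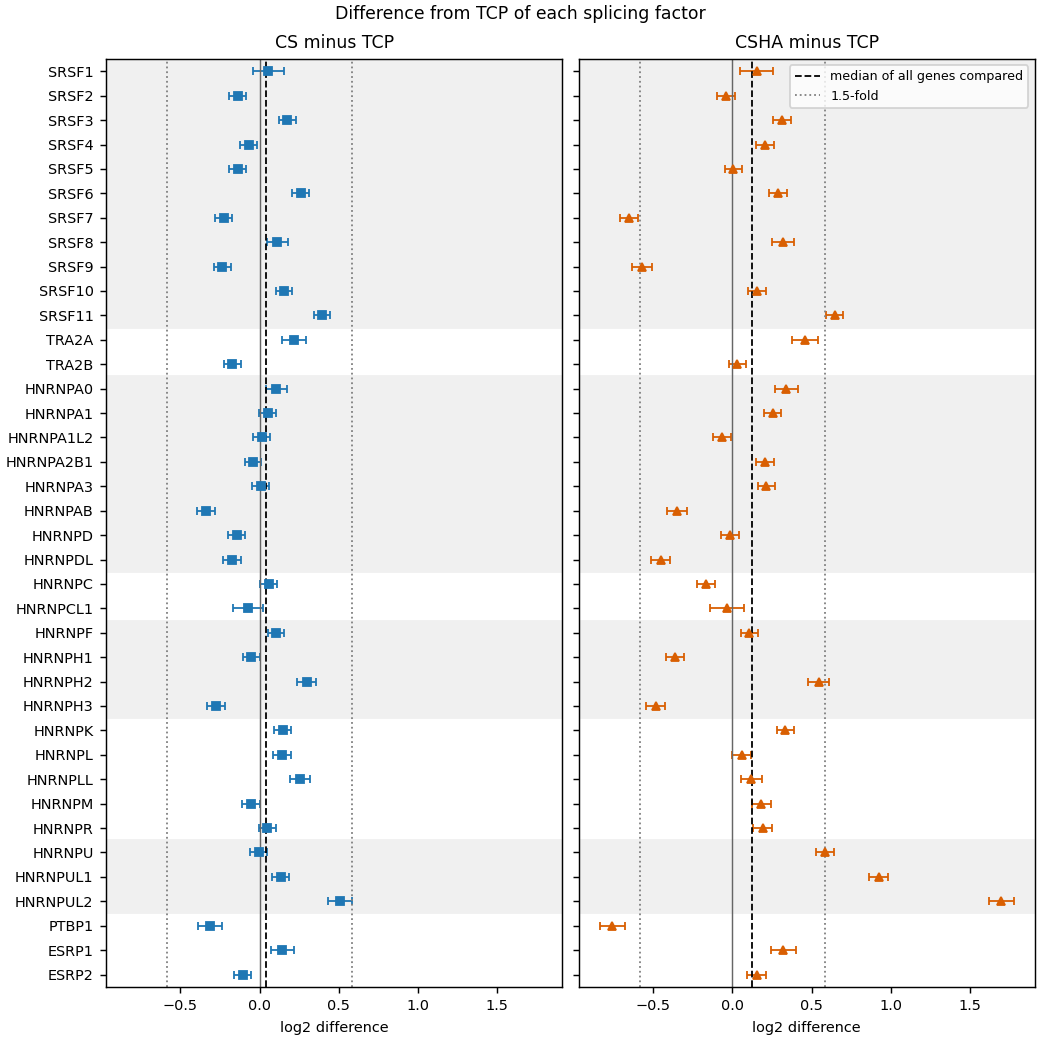
Log2 difference from TCP (x axis) of the brightest probe of each of the 38 splicing factors (rows, shaded by family), for CS on the left and CSHA on the right, with bars of 1 SD among spots and not among cultures. No point on CS crosses the dotted 1.5-fold lines, and on CSHA HNRNPUL2, HNRNPUL1, SRSF11 and HNRNPU cross on the high side and PTBP1 and SRSF7 on the low side.

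The family that stood farthest from TCP on CSHA was hnRNP U, large nuclear proteins with a SAP domain that bind both RNA and chromatin. All 3 of its genes passed 1.5-fold, with a median of 0.92, against medians between -0.13 and 0.25 in the other 7 families. HNRNPUL2, a protein that acts in the repair of broken DNA ends, had levels of 0.02 on TCP, 0.52 on CS and 1.71 on CSHA. Of the 38 it alone was 2-fold higher on this scaling, and its difference of 1.70 ± 0.080 on CSHA was 3.24-fold. With the deposited log2 values this difference was 1.53.

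HNRNPUL1, which likewise binds RNA and takes part in the response to DNA damage, had levels of 2.64, 2.77 and 3.56 on TCP, CS and CSHA. It was higher on CSHA by 0.92 ± 0.061, a 1.90-fold difference, and on CS by 0.13 ± 0.055. HNRNPU itself, also called scaffold attachment factor A, had levels of 4.88, 4.88 and 5.47. The CS array thus matched TCP to within the spread among spots, at a difference of -0.0046 ± 0.053, while CSHA was higher by 0.59 ± 0.056. The other probe of HNRNPU gave a smaller difference on CSHA, 0.15, from levels of 2.17, 2.06 and 2.32, and with the mean of both probes the difference was 0.37. HNRNPUL1 and HNRNPUL2 had 1 probe each, so no other probe bears on them.

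Among SR proteins 11 were measured, with a median of 0.06 for CS and 0.16 for CSHA. SRSF11, an SR-related protein that binds the splicing factor U2AF, had levels of 4.38 on TCP, 4.77 on CS and 5.02 on CSHA. Relative to TCP it was higher by 0.39 with CS and by 0.65 ± 0.056, or 1.56-fold, with CSHA. Its other probes were also higher on both membranes, by 0.02 and 0.32 for the next brightest and by 0.19 and 0.64 for the third. SRSF11 was thus the 1.5-fold gene with 3 probes on the same side, and its mean over probes on CSHA was 0.53.

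SRSF7, which binds the export receptor NXF1 and helps carry mRNA out of the nucleus, had levels of 5.52, 5.30 and 4.87 by its brightest probe. That probe was lower by 0.23 on CS and by 0.65 ± 0.056 on CSHA, 1.57-fold. Its second probe, annotated to another transcript of the gene, read 0.72, 0.74 and 0.77, which is a difference of 0.05 on CSHA. The probes were thus 0.71 apart on CSHA, and the mean of both was -0.30. SRSF9, the short relative of SRSF1, was lower by 0.24 on CS and 0.57 on CSHA by its only probe.

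The remaining SR proteins moved less. SRSF3, the smallest of the family and another adaptor of mRNA export, had differences of 0.17 for CS and 0.31 for CSHA, and of 0.15 and -0.16 by its fainter probe. SRSF6 was higher by 0.26 and 0.29, SRSF8, a copy of SRSF2 without introns, by 0.11 and 0.32, and SRSF10 by 0.15 and 0.16. The second probe of SRSF6, annotated to a non-coding transcript of the gene, was higher by 0.18 and 0.51. SRSF1, the founding member, was at 0.06 for CS and 0.15 for CSHA, and SRSF4 at -0.07 and 0.21. SRSF2, a component of nuclear speckles, was at -0.14 and -0.04, and SRSF5 at -0.14 and 0.01. Probes of SRSF2 and SRSF8 may share targets because the genes are copies, so these values are uncertain.

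The TRA2 proteins are SR-like activators that bind GAA-rich enhancers. TRA2A had levels of 1.07 on TCP, 1.29 on CS and 1.53 on CSHA, so that CS exceeded TCP by 0.22 ± 0.075 and CSHA did by 0.46 ± 0.080. TRA2B had levels of 5.61, 5.44 and 5.65, lower by 0.17 on CS and at 0.03 on CSHA. The other probe of TRA2B had levels of 2.77, 2.79 and 2.55 and so was at 0.03 on CS and -0.21 on CSHA. The paralogs thus differed on both membranes by their brightest probes, with TRA2A the higher difference each time.

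PTBP1 passed 1.5-fold on CSHA, and neither ESRP gene did so in any comparison. PTBP1, which represses exons flanked by pyrimidine tracts, had levels of 0.79, 0.48 and 0.03 on TCP, CS and CSHA. It had the lowest difference of all 38 on CSHA, -0.76 ± 0.080 or 1.69-fold, and was at -0.31 on CS. It had a single probe, which was well above background on every array. ESRP1 had levels of 1.23, 1.37 and 1.55, higher by 0.14 ± 0.075 and 0.32 ± 0.080. ESRP2 was printed 10 times and had levels of 3.43 ± 0.035 on TCP, 3.32 ± 0.046 on CS and 3.58 ± 0.043 on CSHA (SD, n = 10 spots), so it was lower than TCP by 0.11 on CS and higher by 0.15 on CSHA. The TCP and CS arrays overlapped in its spots, since the lowest TCP spot was 3.37 and the highest CS spot was 3.39. All CSHA spots lay above those of both other arrays, but narrowly for TCP, with a lowest CSHA spot of 3.49 beside a highest TCP spot of 3.48. How common such a separation is among probes printed 10 times was not tested.

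**Figure D3:**
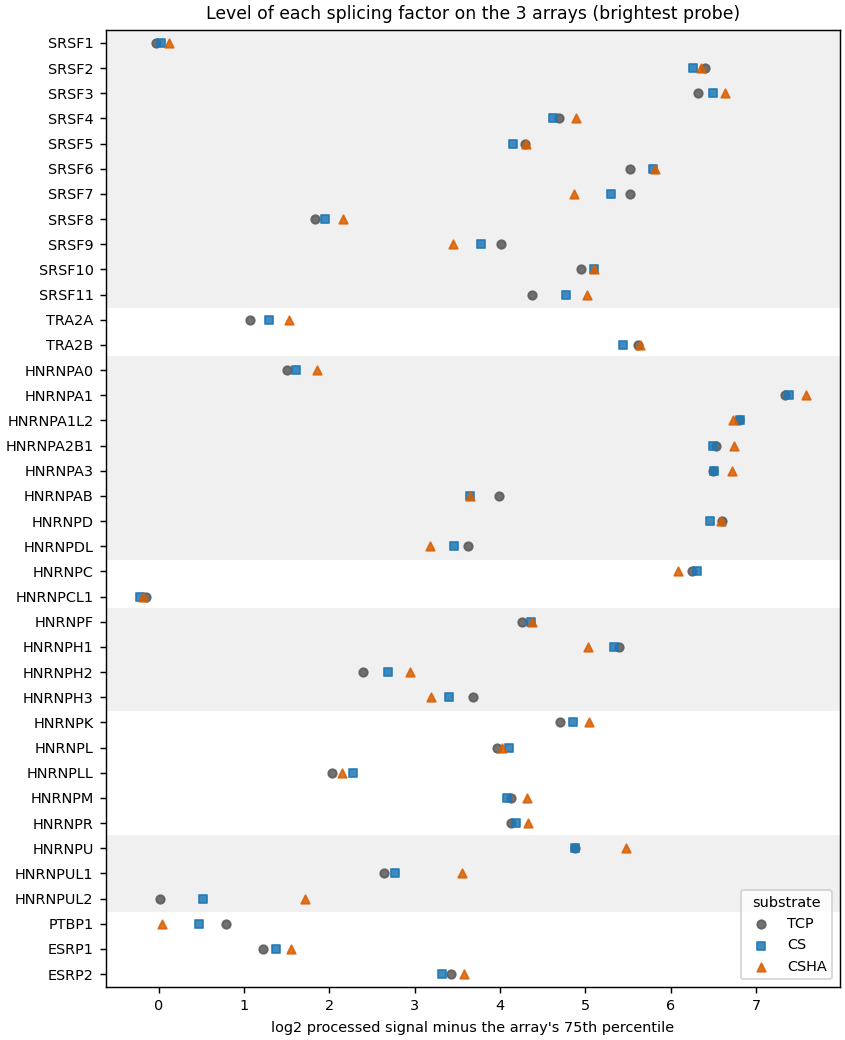
Level of the brightest probe (x axis, log2 processed signal minus the array's 75th percentile) of each splicing factor measured (rows, shaded by family) on TCP, CS and CSHA, 1 array each. Each row is read alone because probes differ in brightness, and the CSHA symbol lies far to the right of TCP for HNRNPUL2 and HNRNPUL1 and to the left for SRSF7 and PTBP1.

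The hnRNP A/B and D genes encode the most abundant core proteins of hnRNP particles and regulators of mRNA decay such as HNRNPD. Their 8 genes had medians of -0.02 for CS and 0.10 for CSHA, and none reached 1.5-fold. HNRNPA1, the classic antagonist of SRSF1, was at 0.05 and 0.25, and its fainter probe at 0.40 and 0.45. HNRNPA0, which binds AU-rich elements, was higher by 0.11 and 0.34, while HNRNPAB was lower by 0.34 and 0.35. HNRNPD was at -0.14 and -0.01, and its second probe at -0.18 and 0.32. HNRNPA1L2 is an intronless copy of HNRNPA1, so its 5 probes may read HNRNPA1 and are uncertain. On CSHA they ran from -0.53 to 0.52.

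In several of these genes the probes went opposite ways on CSHA. HNRNPA2B1 had levels of 6.53, 6.49 and 6.74 by its brightest probe and of 6.01, 6.01 and 5.55 by the other, which is 0.21 against -0.46. HNRNPDL, a paralog of HNRNPD, had levels of 3.63, 3.46 and 3.18 by its brightest probe and of 3.02, 3.28 and 3.33 by the other. It was thus lower by 0.45 on CSHA by the first and higher by 0.32 by the second. HNRNPA3 had the widest range, 1.06, with probes at 0.28, 0.22, -0.02, -0.03, -0.72 and -0.78 on CSHA. Its brightest probe was the 0.22 one.

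The hnRNP C proteins bind uridine tracts and keep cryptic exons out. HNRNPC was at 0.06 for CS and -0.17 for CSHA, where its fainter probes read -0.49 and 0.28. HNRNPCL1, an intronless relative whose probe may read HNRNPC, was at -0.07 and -0.03. The hnRNP F/H proteins bind runs of G, and their 4 genes split evenly, with medians of 0.03 for CS and -0.13 for CSHA. HNRNPH2 was printed 10 times, with levels of 2.39 ± 0.10, 2.69 ± 0.037 and 2.94 ± 0.075 (SD, n = 10 spots). Its spots on the 3 arrays did not overlap, since TCP ended at 2.49, CS ran from 2.63 to 2.74 and CSHA began at 2.80. Spots are not cultures, and how common such a separation is among probes printed 10 times was not tested.

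HNRNPH1, its near-identical paralog, went the other way, at -0.05 on CS and -0.36 on CSHA, and HNRNPF was at 0.10 and 0.11. Probes of HNRNPH1 and HNRNPH2 may bind each other's transcripts, so their values are uncertain. HNRNPH3 had levels of 3.68, 3.40 and 3.20 by its brightest probe, lower by 0.27 and 0.48. Its other probe, printed 10 times, had levels of 3.06 ± 0.049, 3.24 ± 0.045 and 3.35 ± 0.039 (SD, n = 10 spots), higher by 0.18 and 0.29. The probes of HNRNPH3 were 0.78 apart on CSHA, the widest gap between a brightest and a next brightest probe among the 19 genes.

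By their brightest probes the hnRNP K, L, M and R genes had medians of 0.14 for CS and 0.18 for CSHA. On CSHA 5 of 5 were above 0, where 61.7% of all genes were. HNRNPK, which binds runs of C and also acts in transcription, had levels of 4.70, 4.85 and 5.04 by its brightest probe, at 0.15 and 0.34. The other probe of HNRNPK had levels of 4.47, 4.41 and 4.17, which is -0.06 and -0.30. HNRNPL, which binds CA repeats, was at 0.14 and 0.06, the latter within the spread among spots. HNRNPLL, its paralog known for splicing of CD45 in lymphocytes, was at 0.25 and 0.12, with its second probe at 0.22 and -0.18. HNRNPM, which opposes ESRP1 at CD44 exons, was at -0.05 and 0.18, and HNRNPR, a relative of SYNCRIP, at 0.05 and 0.19.

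**Figure D4:**
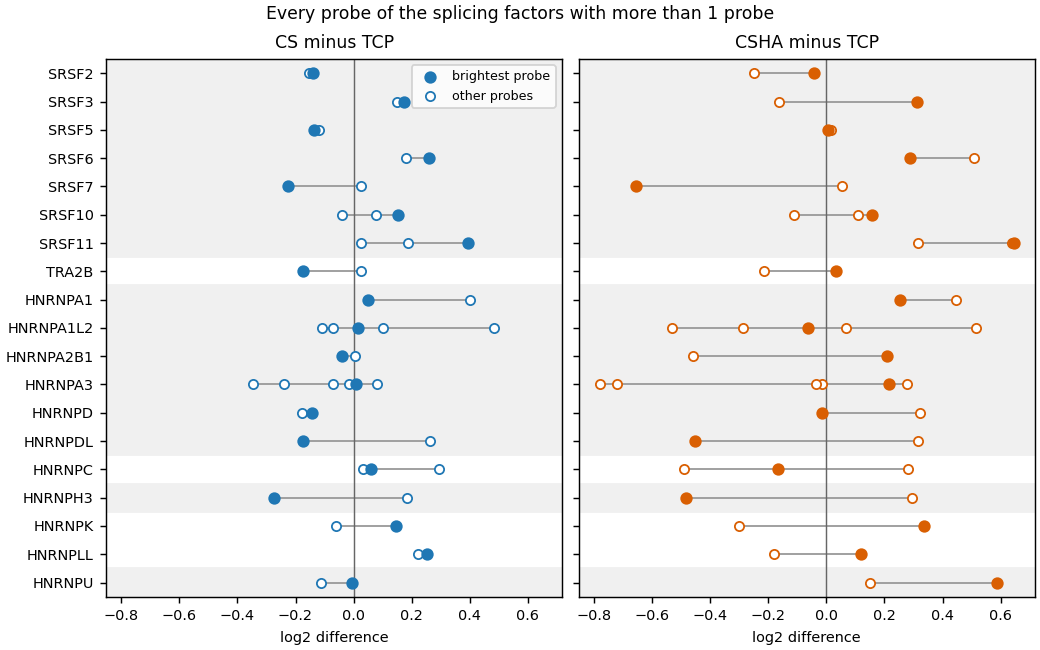
Log2 difference from TCP (x axis) of every probe of the 19 splicing factors with more than 1 probe (rows), for CS on the left and CSHA on the right, with the brightest probe filled, the others open and a line over their range. On CSHA the line crosses 0 in 13 of 19 genes, and it is longest for HNRNPA3.

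Agreement between probes was closer on CS than on CSHA. The brightest and the next probe of the 19 genes lay a median of 0.08 apart on CS and 0.32 apart on CSHA, beside 0.17 and 0.32 in the 3500 genes with 2 or more measured probes. A gap of at least 0.5 occurred in 0 genes on CS and in 5 on CSHA, namely SRSF7, HNRNPA2B1, HNRNPDL, HNRNPH3 and HNRNPK. That is 26.3% of the 19 on CSHA, where 32.1% of all such genes had this gap, and 8.37% had it on CS. The first 2 probes had opposite signs in 6 genes on CS and 11 on CSHA, or 31.6% and 57.9%, beside 34.1% and 39.6% of all. On CSHA all probes were higher in 5 genes, all were lower in SRSF2 alone, and they lay on both sides of 0 in 13. The 5 genes with all probes higher were HNRNPA1, HNRNPU, SRSF5, SRSF6 and SRSF11, of which SRSF5 lay within the spread among spots. The brightest probe of SRSF2, at -0.04, also lay within that spread, and its other probe was at -0.25. Probes of a gene can lie in different exons or transcript ends, and their positions were not used here.

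The direct comparison of the membranes asked what grafting hyaluronan onto chitosan changed. CSHA exceeded CS by a median of 0.14 over the 38 genes, beside 0.07 for 14597 genes, with 27 of the 38 higher and 11 lower. Most of all genes were higher too, since their median was above 0. Their quartiles were -0.16 and 0.28, beside -0.061 and 0.24 for the 38. With the mean over measured probes the median was 0.022, below the 0.053 of all genes, with 21 higher and 17 lower. By the brightest probes, 3 were 1.5-fold higher, HNRNPUL2, HNRNPUL1 and HNRNPU, and 0 were lower, where 7.68% and 7.33% of all genes were. At 2-fold, 1 was higher, HNRNPUL2, and 0 were lower, beside 2.27% and 2.15% of all genes. HNRNPUL2 was higher on CSHA than on CS by 1.19 ± 0.073, HNRNPUL1 by 0.79 ± 0.058 and HNRNPU by 0.59 ± 0.055, with the second HNRNPU probe at 0.26. The lowest were PTBP1 at -0.44 and SRSF7 at -0.43. These values share the CS and CSHA arrays with those above and are not independent of them.

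The kinases and phosphatases that act on SR proteins had a median of 0.10 on CS over 11 genes and of 0.21 on CSHA over 10. On CS, 1 was 1.5-fold higher, SRPK3, which was well above background on CS and not on TCP and so was at least 1.65-fold higher. That bound of 0.72 is no larger than the spread among spots of so faint a probe, also 0.72. Among all genes 4.11% were higher on CS by this rule. On CSHA, 1 of 10 was 1.5-fold higher and 2 were lower, where 11.5% and 11.2% of all genes were. The higher was DYRK1A, a nuclear kinase of SR proteins, at 0.60 by its brightest probe. Its second probe was at 0.26. Its faintest, well above background on CSHA and not on TCP, was higher by at least 1.14. The lower were PPP1CA, a catalytic subunit of protein phosphatase 1, and CLK2. PPP1CA had levels of 4.89, 4.63 and 3.66, a difference of -1.22 on CSHA, whereas its sister subunits PPP1CB and PPP1CC were at 0.42 and 0.55. SRPK1 was at 0.19 for CS and 0.20 for CSHA, SRPK2 at -0.02 and 0.05, CLK1 at 0.13 and 0.29, and CLK2 at -0.19 and -0.61.

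A list of 46 further splicing regulators gave 41 values on CS and 42 on CSHA, with medians of 0.02 and 0.08. On CS, 2 were 1.5-fold lower, among them TAF15 at -0.87, and 0 were higher, where 5.03% and 4.11% of all genes were. On CSHA, 3 were higher, PTBP3, RBM39 and RBMX, and 5 were lower, among them RALY, RBFOX2, RBM4 and SRRM1, where 11.5% and 11.2% of all genes were. In several of these the probes did not agree. The brightest probe of RBM39 was at 0.64 and its others at -0.26 and -0.30, and for RBMX these were 0.64, -0.35 and -0.44. RBFOX2 was at -0.79 with its second probe at -0.0046, and RBM4 at -0.71 with its second at 0.03. RALY, a close relative of hnRNP C, was lower by 0.31 on CS and by 1.01 on CSHA. PTBP3 and PTBP2 are paralogs of PTBP1, and on CSHA they were at 0.65 and 0.10, where PTBP1 was at -0.76. The second probe of PTBP3 was at 0.78 on CSHA.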

How the data were processed

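RNA of HT29 cells from 3 substrates was hybridized to 3 arrays, 1 per condition. The authors deposited the intensity of every spot from Feature Extraction 10.7.3.1, as the file headers name it, not normalized between arrays. The methods name an earlier version and other RNA and labelling kits than the sample records. The authors also deposited log2 values, which equal the log2 median spot signal plus a constant per array, centred per spot, with column medians of 0.013, -0.129 and 0.043. These served as an alternative, and 0 of their columns lacked a sample.

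A floor of 1 was applied to the processed signal, and no spot lay under it. Control and outlier spots were left out, spots of a probe were averaged in log2, and each array was shifted by its 75th percentile over probes. Accessions were matched to RefSeq symbols of GRCh38.p14, which served for naming alone because the array design cites hg19, and 30004 of 50599 probes (59.3%) matched. The brightest probe stood for a gene. Genes entered a comparison if either array read them well above background, and if the other did not, the difference is a bound. Values on every array were given for genes past 1.5-fold, for genes whose first 2 probes differed by at least 0.5, and for TRA2A, TRA2B, PTBP1, ESRP1 and ESRP2, and of each further list the highest and lowest gene. Of the list of further regulators, 1 gene is not reported here. The members and lists were chosen with earlier results of these data known. The calculation was tested on simulated arrays. The 9 alternatives cover background correction, scaling, filters, the probe rule and the deposited values. Background correction and quantile normalization ran in limma 3.58.1 under R 4.3.3, and all else in pandas 2.3.3 and numpy 2.4.6 under Python 3.11.15.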

Additional observations from a re-analysis of the deposited data

How the results depend on the processing

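With 9 alternatives, 122 of 135 recomputed counts and medians of the splicing factors stayed near the reported value and 13 moved. Of 378 recomputed differences of single genes, 289 stayed within the spread among spots. In all 17 changed sign, 10 of them for HNRNPA2B1 and HNRNPU on CS and TRA2B on CSHA, whose reported differences from TCP lie within that spread, and 7 for differences beyond it. The median for CSHA minus TCP was 0.10 with the 75th percentile over detected probes, 0.58 with spike-in scaling and 0.067 with the mean over measured probes. For CSHA minus CS it was 0.52 with spike-in scaling and 0.022 with the mean over probes. The count 1.5-fold higher on CSHA than on TCP was 2 with quantile normalization, 19 with spike-in scaling and 2 with the mean over probes, and the count lower was 0 with spike-in scaling and 1 with the mean over probes. With spike-in scaling 4 were 2-fold higher than on TCP, and 11 were 1.5-fold and 2 were 2-fold higher than on CS. Under that scaling HNRNPDL and HNRNPH3 turned to 0.10 and 0.17 for CSHA minus CS. With the mean over probes, HNRNPDL turned to 0.045 for CS minus TCP, HNRNPA2B1 to -0.13 for CSHA minus TCP and -0.11 for CSHA minus CS, and HNRNPK and TRA2B to -0.025 and -0.018 for CSHA minus CS. The causes were not tested. The median on CS was -0.0047 with quantile normalization and -0.019 with the 75th percentile over detected probes. No paired analysis was possible because each condition had 1 array. The arrays' number limits the precision, and no alternative stands in for replicate cultures.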

Other observations

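The protein parts of the spliceosome had a lower median on CSHA than the SR and hnRNP genes. Of 39 proteins of the U1, U2 and U4/U6/U5 snRNPs, 29 were lower on CSHA than on TCP, with a median of -0.09. The median of all genes compared was 0.13, and 61.7% of them were higher. Of the 39, 9 were at least 1.5-fold lower and 1 was higher, where 11.2% and 11.5% of all genes were. These values use the 75th percentile scaling. With spike-in scaling the CSHA median of all genes was 0.56, so the signs can depend on the scaling. SF3B4, a subunit of the SF3b complex that reads the branch point, was lowest, with levels of -1.10 on TCP, -1.61 on CS and -2.89 on CSHA. SNRNP70, the U1 protein that SR proteins contact at the 5' splice site, was lower by 0.67 on CS and by 1.47 on CSHA. PHF5A, PRPF3 and DDX23 were at -1.44, -1.21 and -1.13 on CSHA. Of the 10 above 0 on CSHA, SF3A2, a U2 protein, was the 1 past 1.5-fold, at 0.86. On CS the median was -0.03, with 16 higher and 23 lower, where 56.8% of all genes were higher. SF3B6 was highest on CS, at 0.25. The difference between this list and the splicing factors was not tested.

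Of 15 factors of nonsense-mediated decay, 2 were 1.5-fold lower on CSHA, SMG9 at -0.97 and SMG6 at -0.73, where 11.2% of all genes were, and the median was -0.06 on CS and -0.03 on CSHA. The highest was MAGOHB, a protein of the exon junction complex, at 0.33 on CSHA, and on CS they ran from MAGOH at -0.52 to UPF3A at 0.21. The second probe of UPF3A went the other way, at -0.46 on CS and -0.68 on CSHA. Of 5 carriers that move SR and hnRNP proteins or mRNA through the nuclear pore, NXF1, the mRNA export receptor, had levels of 2.05, 1.74 and 0.85 and was lower on CSHA by 1.20. By their brightest probes the other 4 lay between -0.23 and 0.07 on CSHA. Among them were TNPO1 and TNPO3, the importins of hnRNP and SR proteins, at 0.07 and -0.02. The second probes of TNPO1, TNPO3 and IPO5 were higher on CSHA, at 0.38, 0.42 and 0.35, and that of KPNB1 was at 0.009. On CS the carriers had a median of -0.09, from NXF1 at -0.31 to IPO5 at 0.32.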
